A study of Rattus norvegicus with 4 samples.

Results

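The genes described here are the Rab GTPases, as measured in the rat macrophage line NR8383 after exposure to zinc iron oxide. They were chosen by symbol alone, as every gene whose probe accession maps to a rat RefSeq symbol made of Rab, a number and an optional letter, without effectors or regulators. The rule found 70 probes among 45598 gene probes, and these stood for 54 genes among 16526 named genes with a value on every array. Of the 58 Rab symbols in the RefSeq table, Rab22a, Rab37, Rab42 and Rab44 had no named probe and were not analysed here. NR8383 is a macrophage line derived from rat lung lavage, grown partly attached and partly floating. All cells had 20 passages and were exposed to ZnFe2O4 (NRCWE021, zinc iron oxide) at 17 µg/mL for 4 h, in 4 biological replicates with 1 array each. Control arrays were not analysed here, so the values describe exposed cells and give no effect of exposure. The RNA came from whole cultures, in which fewer cells of a type and less RNA per cell cannot be told apart.

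Rab proteins are small GTPases that switch between a GDP-bound form held in the cytosol and a GTP-bound form on a membrane, where they recruit tethers, motors and fusion factors. Each is found on its own set of membranes, so the family serves as a map of vesicle traffic. In a macrophage that takes up a particle, the new phagosome carries Rab5 early and Rab7 later, before it fuses with lysosomes. Some members are described in most tissues, and others mainly in neurons, epithelia or cells that release granules.

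A gene was counted as detected on an array when the scanner software called at least 1 of its probes well above background. The processed signal, in intensity units, is the brightness left after the software's background correction. The arrays did not read dim signal alike. The dimmest of 10 spike-in control probes had a signal of 3.83, 537, 109 and 3.92 on replicates 1 to 4, and 0%, 100%, 97.1% and 0% of its spots were called well above background. On replicates 2 and 3 this control is thus called too, and so are genes dimmer than it. On replicate 2, for example, Rab7a was called at 220.2 and Rab3b at 129.9. Detection is therefore given for all 4 arrays and for replicates 1 and 4. Macrophage markers were detected on replicates 1 and 4 for 9 of 11 measured genes. The exceptions were Adgre1, detected on no array, and Marco, which read 7.63 and 6.07 on replicates 1 and 4. Markers of epithelium, neurons, granulocytes, lymphocytes and fibroblasts were detected there for 1 of 26, the exception being Stx1a.

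Of the 54 Rab genes, 33 (61.1%) were detected on all 4 arrays, where 42.5% of all named genes were. On replicates 1 and 4 the count was 39 Rab genes (72.2%), against 46.0% of all named genes. Singly, replicates 1 to 4 detected 40, 51, 41 and 39 Rab genes, beside 52.3%, 91.6%, 75.5% and 46.3% of named genes. A further 7 Rab genes (13.0%) were detected on replicates 2 and 3 but not on replicates 1 and 4, a pattern held by 27.8% of named genes. Rab3c and Rab38 were detected on no array, as were 6.37% of named genes. The median level of the Rab genes, as log2 signal minus the 75th percentile of the array, was -0.05, and that of all named genes was -1.47. This gap was 3.46, 0.23, 0.21 and 3.29 log2 units on replicates 1 to 4, so it rests on replicates 1 and 4. Taken over the mean of the arrays it was 1.42, 0.81 to 2.28 without 1 replicate, and 0.46 with normexp.

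**Figure D1:**
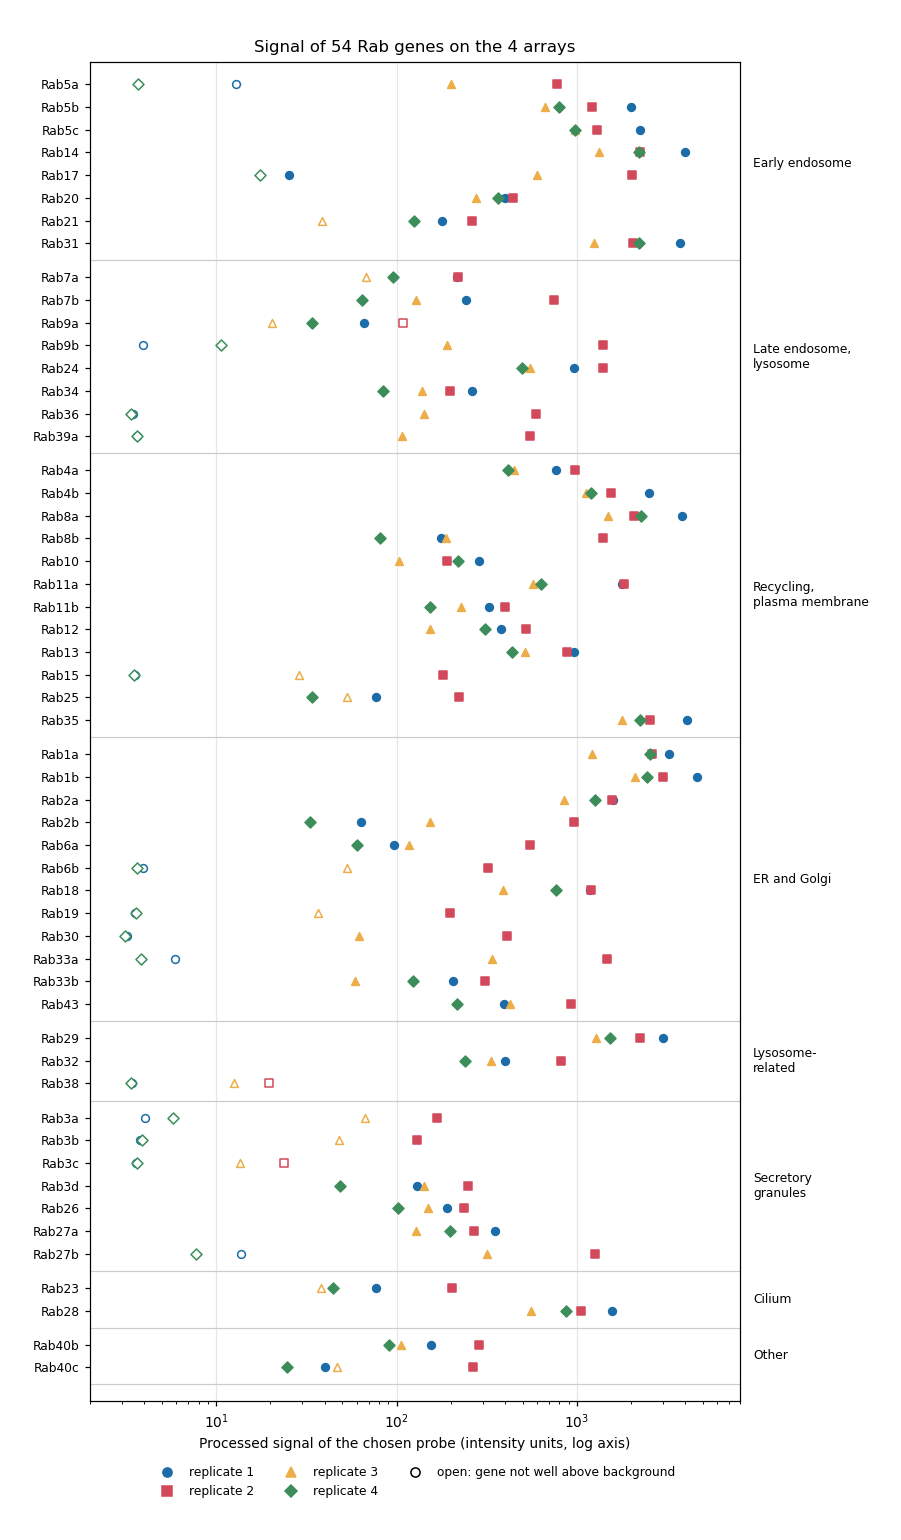
Processed signal (x axis, intensity units, log scale) of the chosen probe of each of the 54 Rab genes (rows, grouped by site of action) on the 4 arrays; filled points mark arrays on which the gene was well above background, and signals compare arrays within a row, not genes. Rab3c and Rab38 are open on every array, and Rab5a lies at 12.9 and 3.70 on replicates 1 and 4 while Rab5b and Rab5c are filled throughout.

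Rab5 acts on early endosomes, where it drives their fusion, and its 3 genes did not read alike. Rab5a had signals of 12.9, 778, 202 and 3.70 on replicates 1 to 4. Rab5b had signals of 1989, 1208, 670.0 and 797, and Rab5c had signals of 2246, 1294, 973 and 982. Rab5b and Rab5c were detected on all 4 arrays, while Rab5a was detected on replicates 2 and 3 and was, on replicate 4, close to the median of 3.34 of the negative control spots. Rab5a was read by a single probe, and no other probe was there to set beside it. The 250 bases before the start of Rab5a and of Rab5b are shown, since the genes differ in detection; they are from RefSeq on GRCr8, 5′ to 3′ along the gene, with each CG pair in capitals. The Rab5a window is chr9:6720877-6721126 on the plus strand and the Rab5b window is chr7:1712737-1712986 on the minus strand.
Rab5a: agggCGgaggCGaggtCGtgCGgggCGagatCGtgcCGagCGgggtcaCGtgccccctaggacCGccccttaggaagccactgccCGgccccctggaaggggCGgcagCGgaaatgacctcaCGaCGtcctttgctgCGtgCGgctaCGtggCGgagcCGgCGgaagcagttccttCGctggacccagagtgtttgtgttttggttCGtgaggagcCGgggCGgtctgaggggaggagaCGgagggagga
Rab5b: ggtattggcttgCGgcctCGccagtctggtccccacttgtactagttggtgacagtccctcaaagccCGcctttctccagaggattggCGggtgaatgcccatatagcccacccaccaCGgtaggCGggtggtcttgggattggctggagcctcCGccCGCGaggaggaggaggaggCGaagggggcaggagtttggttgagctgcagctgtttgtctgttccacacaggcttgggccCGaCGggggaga
The Rab5a window holds 26 CG pairs and 68.4% G and C, and the Rab5b window holds 12 CG pairs and 62.4% G and C. The gene that was not detected on replicates 1 and 4 thus had the window with more CG pairs.

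The other early endosome genes were mostly detected. Rab14, which links the Golgi with endosomes, had signals of 3998, 2249, 1331 and 2219. Rab31, which carries cargo to endosomes and is also found on phagosomes, had signals of 3735, 2048, 1241 and 2222. Rab20, a Rab of maturing phagosomes, had signals of 401, 443, 276 and 364 and was detected on all 4 arrays. Rab21, which moves integrins, had signals of 179, 261, 38.4 and 125 and missed detection on replicate 3 alone. Rab17, a Rab of polarised epithelia, read 25.4, 2022, 601 and 17.4 and missed it on replicate 4, a pattern of 4.27% of named genes. In all, 6 of 8 early endosome Rab genes were detected on replicates 1 and 4, and 5 on all 4 arrays.

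Rab7 controls fusion of late endosomes and phagosomes with lysosomes. Rab7a, the common form, had signals of 217, 220.2, 67.6 and 96.1 and was detected on every array but replicate 3. Rab7b, which acts between late endosomes and the Golgi, had signals of 244, 744, 128 and 64.7 and was detected on all 4. Rab9a, which returns receptors from late endosomes to the Golgi, had signals of 66.3, 108, 20.3 and 33.8 and was detected on replicates 1 and 4 alone, a pattern held by 0.708% of named genes. Its signals on replicates 2 and 3 were below those of the dimmest spike-in there.

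The remaining late endosome genes either were detected on all arrays or missed replicates 1 and 4. Rab24, linked to autophagy, had signals of 963, 1391, 551 and 498 and was detected throughout, as was Rab34, which positions lysosomes and forms macropinosomes, with 262, 198, 139 and 83.8. Rab39a, which acts in phagosome acidification, had signals of 3.63, 547, 107 and 3.63 and was not detected on replicate 1 or 4. Rab36, a relative of Rab34, showed the same pattern with 3.46, 595, 142 and 3.38, and so did Rab9b, a relative of Rab9a, with 3.93, 1390.1, 189.7 and 10.6. Of 8 late endosome Rab genes, 5 (62.5%) were detected on replicates 1 and 4, beside 46.0% of named genes. On all 4 arrays 3 of the 8 (37.5%) were, near the 42.5% of named genes.

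Recycling and plasma membrane Rabs had the highest share of detected genes among the groups of more than 3, with 11 of 12 on replicates 1 and 4 and 10 on all 4 arrays. Rab11a, of the slow recycling endosome, had signals of 1783, 1829, 575 and 636.5, and Rab11b had signals of 326, 400.3, 229 and 153. Rab35, which acts in fast recycling and in phagocytosis, had signals of 4059, 2538, 1778 and 2247. Each of these was detected on every array. Rab10, which sorts cargo from endosomes to the surface, had signals of 286, 189.9, 103 and 219, and those on replicates 2 and 3 lay below the dimmest spike-in. Rab12, of recycling traffic, had signals of 377.5, 519, 153 and 311. Rab4a, Rab4b, Rab8a, Rab8b and Rab13 were detected on all 4 arrays too. Rab15, described in neural cells, was the exception on replicates 1 and 4, at 3.55 and 3.51. Rab25, a relative of Rab11 in epithelia, had signals of 77.1, 223, 52.8 and 34.0 and was detected on every array but replicate 3.

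ER and Golgi Rabs were detected on all 4 arrays for 8 of 12 genes (66.7%), beside 42.5% of named genes. Rab1a and Rab1b, which serve traffic from the ER to the Golgi, had signals on replicate 1 of 3232 and 4644 and on replicate 4 of 2533 and 2455. Rab43, of Golgi structure and phagosomes, had signals of 392, 925, 426 and 215. The others detected were Rab2a, Rab2b, Rab6a, Rab18 and Rab33b. Rab6b, Rab19, Rab30 and Rab33a were not detected on replicate 1 or 4, where their signals ran from 3.12 for Rab30 to 5.90 for Rab33a. Among Rabs of lysosome-related organelles, Rab29 had signals of 3005, 2238, 1285 and 1528 and Rab32, a melanosome Rab also found on phagosomes, had 399.6, 819, 334 and 239. Their relative Rab38, of melanosomes and of lung lamellar bodies, was at 3.41, 19.6, 12.5 and 3.38, close to the negative control medians of 3.45, 23.0, 12.9 and 3.34.

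Secretory granule Rabs differed in detection from gene to gene. Rab27a, which docks granules and lysosome-related organelles at the plasma membrane, had signals of 350.4, 269, 129 and 199. Rab26, of granule maturation, had signals of 191, 237, 150.4 and 102, and Rab3d, the Rab3 of exocrine and mast cell granules, had signals of 129, 249.6, 141 and 48.6. These 3 of 7 genes (42.9%) were detected on all 4 arrays, near the 42.5% of named genes. The neuronal members were not: Rab3a had signals of 4.03, 168, 66.6 and 5.74, with detection on replicate 2 alone, as for 12.8% of named genes. Rab3b had signals of 3.77, 129.9, 48.1 and 3.86 with the same pattern, and Rab3c had 3.61, 23.7, 13.6 and 3.62. Rab27b had signals of 13.8, 1260.5, 316 and 7.75 and was detected on replicates 2 and 3 alone. The neuronal marker Stx1a was detected on all 4 arrays with signals of 92.0, 364, 73.1 and 39.8, whereas Snap25 was detected on none, at 3.96, 84.3, 33.0 and 3.32. The part of other cells in the granule Rab signal was not tested.

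The last 4 genes belong to the cilium or to no single site. Rab28, a cilium Rab, was detected on all 4 arrays, and so was Rab40b, a Rab linked to ubiquitin ligation. Rab40c was detected on all but replicate 3, with signals of 40.3, 267, 46.9 and 24.6. Rab23, which acts in the cilium and in hedgehog signalling, had signals of 77.1, 202, 38.3 and 44.5 by its brighter probe, with detection on all but replicate 3. The pattern of detection on all arrays but replicate 3 was held by 5 of 54 Rab genes and by 2.52% of named genes.

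Members described in most tissues (broad) were set beside members described in few (restricted), to see which Rabs of each class the macrophage line carried. The classes came from general knowledge of the tissues in which each Rab is described. They were drawn up with earlier results of these data known, so the counts below are not independent of those results. Measured genes numbered 20 in the broad class and 14 in the restricted class, with 20 placed in neither. On replicates 1 and 4, 19 of 20 broad genes (95.0%) and 4 of 14 restricted genes (28.6%) were detected, beside 46.0% of named genes. On all 4 arrays the counts were 16 broad genes (80.0%) and 3 restricted genes (21.4%), beside 42.5%. The median level on replicates 1 to 4 was 3.59, 0.50, 1.18 and 3.64 for broad genes, -4.18, -1.81, -1.25 and -2.76 for restricted genes, and -2.20, -0.59, -0.58 and -2.16 for all named genes. These medians are of different probes, and they do not measure a difference in amount between the classes. The classes hold different genes on the same arrays, so no test between samples applies and the counts are a description.

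The gap between classes differed by array. It was 59.3, 9.29, 35.0 and 66.4 percentage points on replicates 1 to 4. The narrow gap was on replicate 2, which called 12 of 14 restricted genes and 91.6% of named genes. Rab5a was the broad gene missed on replicates 1 and 4. The restricted genes detected on both were Rab3d, Rab25, Rab26 and Rab27a, and Rab17 was detected on replicate 1 and not on replicate 4. Genes in neither class were detected on replicates 1 and 4 for 16 of 20 (80.0%), beside 46.0% of named genes. The exceptions were Rab19, Rab30, Rab36 and Rab39a.

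**Figure D2:**
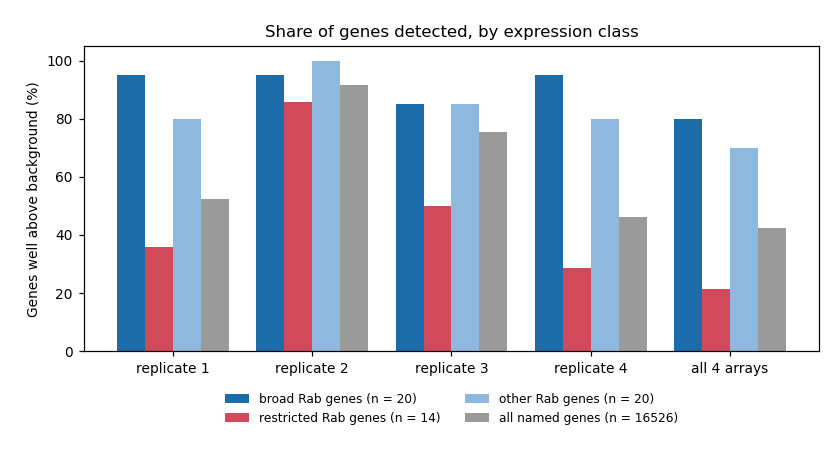
Share of genes well above background (y axis, percent, from 0) on each array and on all 4, for broad, restricted and other Rab genes and for all named genes. Broad genes stood at 95.0% on replicates 1 and 4 while restricted genes stood at 35.7% and 28.6%, and on replicate 2 the classes were closer.

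Rabs described on phagosomes made up 16 of the measured genes, and 14 (87.5%) were detected on replicates 1 and 4 and 13 (81.2%) on all 4 arrays, beside 46.0% and 42.5% of named genes. Rab5a and Rab39a were the members missed on replicates 1 and 4, and Rab7a was missed on replicate 3. Outside this list, 25 of 38 Rab genes (65.8%) were detected on replicates 1 and 4. Those 38 hold all 14 restricted genes, of which 4 (28.6%) were detected there, and the phagosome list holds no restricted gene. The shares inside and outside the list thus differ in expression class too, and they do not show a trait of phagosome Rabs. The list was drawn up with earlier results of these data known.

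Relatives that share a number gave a finer view, since they often serve the same membrane in different tissues. There were 13 such families with 2 or more measured genes. In 7 of them every member was detected on replicates 1 and 4, in 6 some were, and in 0 none was. The mixed families were Rab3 with Rab3d detected, Rab5 with Rab5b and Rab5c, Rab6 with Rab6a, Rab9 with Rab9a, Rab27 with Rab27a and Rab33 with Rab33b. Rab3 and Rab27 have all their genes in the restricted class. Apart from these and Rab5, the detected member was the broad one and the missed member the restricted one. The classes were drawn up with earlier results of these data known, so this is a description.

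How far a signal depends on the probe could be read from 13 Rab genes with several probes. The brightest probe exceeded the dimmest of the same gene on replicate 1 by 1.14-fold for Rab28 and by 99.3-fold for Rab35, with a median of 8.30-fold, so signals of different genes are not ranked. On replicate 2 the median was 2.17-fold. The probes gave the same calls in all but 3 genes. Rab23 had a further probe, for another accession, that was detected on no array, at 6.29, 93.4, 34.0 and 10.0. The dimmer Rab11a probe missed replicate 3, and the other probes of Rab27b were dimmer on every array than its chosen one. The chosen probe, with the highest mean signal over the 4 arrays, was not the brightest on every array in 3 genes, Rab2b, Rab7b and Rab12. The other Rab2b probe had signals of 216, 677, 109 and 132, against 63.6, 964, 153 and 33.2 by the chosen one. Of the 54 chosen probes, 51 were read by a single spot, and no Rab probe was saturated.

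Replicates 1 and 4 gave the closest pair of readings. Over the 39 Rab genes detected on both, the median absolute difference in level was 0.21 log2 units, and over 7379 named genes it was also 0.21. With the 75th percentile, none of the 39 differed by more than 2-fold, where 2.03% of named genes did. At so low a share, finding none among 39 does not set the Rab genes apart. Before scaling, signals were higher on replicate 1 by a median of 0.87 log2 units for the 39 genes and 0.96 for named genes. The count thus depends on the scaling. Rab7b, at 0.94 log2 units higher on replicate 1, and Rab20, at 0.83 higher on replicate 4, lay farthest apart, followed by Rab12 at 0.69 higher on replicate 4. The other Rab7b probe differed by -0.03 log2 units and the other Rab12 probe by 0.12, so these differences rest on 1 probe each. Rab9a and Rab29 differed by 0.00 and Rab24 by -0.02. The median signed difference of the 39 genes was -0.10 with the 75th percentile, beside -0.01 for named genes, and 0.38 with spike-in scaling, so its direction depends on the scaling. Repeated spots of 1 probe had a median SD of 0.09 on replicate 1 and 0.15 on replicate 4, which covers spot error within an array and not the spread between cultures.

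**Figure D3:**
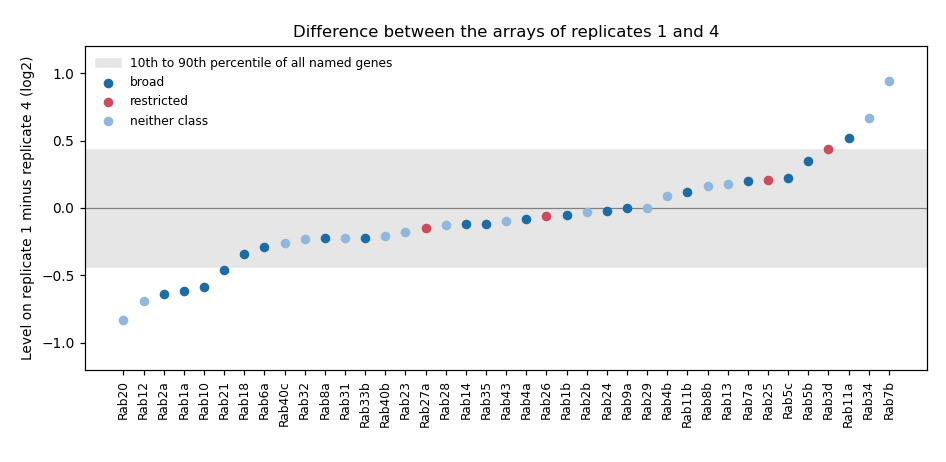
Level on replicate 1 minus level on replicate 4 (y axis, log2 units) for the 39 Rab genes detected on both (x axis, sorted), coloured by expression class, over a band from the 10th to the 90th percentile of 7379 named genes (-0.44 to 0.43). Below the band lie 6 genes, with Rab20 lowest, and above it lie 4, with Rab7b highest.

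Over all 4 arrays the spread was wider and followed the scaling. The 33 Rab genes whose chosen probe was detected on all arrays had a median SD of 1.79 log2 units with the 75th percentile and 0.61 with the 3 brightest spike-ins, and 6813 named genes had 1.55 with the 75th percentile. Levels were higher on both replicates 1 and 4 than on both replicates 2 and 3 for 38 of 54 Rab genes (40.2% of named genes), and lower on both for 13 (45.0%). With spike-in scaling they were higher for 3 (0.877%) and lower for 22 (68.0%). With the percentile taken over probes detected on all arrays, they were higher for 12 (7.74%) and lower for 29 (75.1%), so the order of the arrays depends on the scaling. As examples of level, Rab5b was at 2.68 ± 1.94, Rab7a at -0.32 ± 1.75, Rab11a at 2.66 ± 1.65, Rab27a at 0.42 ± 1.93 and Rab35 at 3.94 ± 1.98 (SD, n = 4). The Rab35 level was 1.59 as the mean of both its probes.

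Promoter sequence was compared with detection, since genes used in many tissues often have promoters rich in CG pairs. RefSeq promoters were found for 45 of 54 Rab genes. A window of 250 bases before the start was called CG-rich when it held at least 50% G and C and at least 0.6 of the CG pairs its base content predicts. This held for 31 of 45 Rab genes (68.9%) and for 47.4% of 13508 named genes. In broad Rab genes it held for 15 of 17 and in restricted ones for 6 of 11. By detection on replicates 1 and 4, it held for 25 of 33 detected Rab genes and 6 of 12 others, beside 67.5% and 29.3% of named genes. Rab14 and Rab7b were detected with 3 and 4 CG pairs, while Rab5a, with 26, was not. The palindrome CACGTG, which reads alike on both strands, lay in the windows of Rab5a, Rab21 and Rab31, 6.67% of Rab genes, beside 6.85% of the measured named genes and 5.59% of all 33469 promoters of that length.

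**Figure D4:**
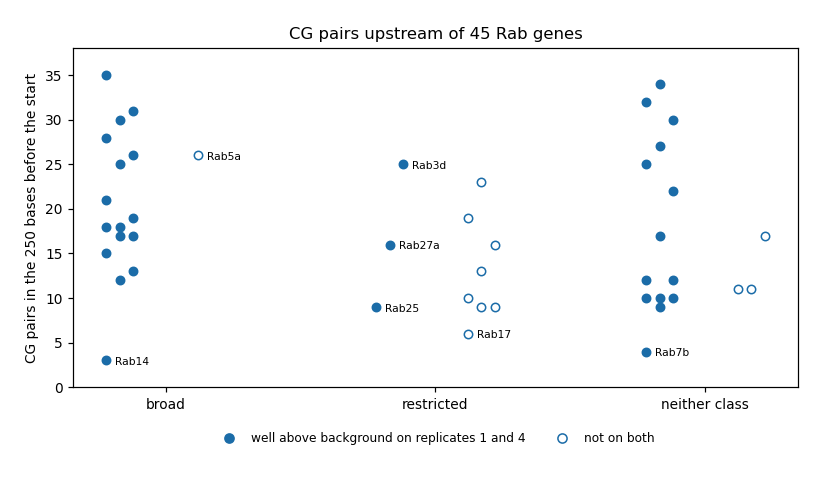
Number of CG pairs in the 250 bases before the start (y axis) of 45 Rab genes by expression class (x axis), filled where the gene was well above background on replicates 1 and 4. Broad genes have a median of 19 CG pairs and restricted genes 13, with Rab5a open at 26 and Rab14 filled at 3.

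Regulators and effectors of Rabs were read from 7 lists of 64 measured genes, of which 45 (70.3%) were detected on replicates 1 and 4, beside 46.0% of named genes. The machinery that prenylates Rabs and extracts them from membranes was detected for 6 of 8 genes, among them Gdi2, a GDP dissociation inhibitor, at 2783, 1814, 1001 and 1616. Exchange factors were detected for 6 of 9 and GTPase-activating proteins for 10 of 11. Effectors at early endosomes were detected for 5 of 6, at late endosomes for 11 of 12 and at recycling endosomes for 4 of 7 (57.1%). Effectors of granule Rabs were detected for 3 of 11 (27.3%), namely Mlph, Rims2 and Unc13d. Rilp, which binds Rab7 and links it to dynein, was detected on all 4 arrays with signals of 978, 1146, 704 and 423.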

How the data were processed

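RNA of 4 replicates of exposed NR8383 cells was measured on 1-colour (Cy3) arrays. Each deposited intensity comes from Agilent Feature Extraction 11.0.1.1, per the file headers, which corrects background and spatial trends within an array, and 0 and 1 flags mark each spot. Those headers name build rn4 for the array design; its coordinates were not used. The deposited series table equals the median pixel intensity on all 62976 spots, with column medians of 54, 604.5, 219 and 46.

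Control spots and outlier spots (832, 946, 1109 and 868 of 58717 gene spots) were left out, repeated spots were averaged as log2 values, and 213 probes left without a spot were removed. Arrays were scaled by subtracting their 75th percentile. Probes were named by accession through the RefSeq table of GRCr8, and 21023 had a name and a value. Each gene was read by the probe with its highest mean signal over the 4 arrays. A probe was detected where at least 0.5 of its spots carried the flag. The precision is limited by the number of arrays.

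Values per array are given for phagosome and granule Rabs, restricted members detected on replicates 1 and 4, broad members missed there, the 3 largest and 3 smallest differences between those arrays and genes whose probes disagree. Other members named with values were chosen after these were seen. Members were taken by symbol alone. The symbol rule, the classes and the lists were set with earlier results of these data known. There is 1 group, so no test was run, and protein sequences were not used here. Python 3.11.15, pandas 2.3.3 and, for normexp on median signals and local background medians, limma 3.58.1 were used. The alternatives were other flags, thresholds, probe rules, scalings, background correction and left-out arrays.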

Additional observations from a re-analysis of the deposited data

Results flagged for a closer look

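Replicate 2 stood apart in the number of Rab genes detected, with 51 of 54 there and 39 to 41 on the other arrays. That count, 94.4%, lay near the 91.6% of all named genes detected on replicate 2, so it is not particular to Rab genes. Replicate 3 stood apart in the number of broad Rab genes detected, with 17 of 20 there and 19 on each of the others. On replicate 3 the share was 85.0%, beside 75.5% of named genes. The level of Rab2b, a Rab of Golgi traffic, was 0.18 on replicate 2 and between -0.52 and -0.45 on the others. This rests on 1 probe: the other Rab2b probe was at 1.29, -0.33, -1.02 and 1.55 on replicates 1 to 4, where replicate 2 did not stand apart. In each case the gap to the nearest other array, divided by the range, was above Dixon's critical value for 4 samples. It was looked for in 54 genes and 3 counts, and chance alone gives about 1 in 20.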

How the results depend on the processing

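The count of Rab genes detected on all arrays was 33. It stayed within 1.5 times that number, from 32 to 42, with the other flag, replicates 1 and 4 only, at least 3 of 4 arrays, the chosen probe alone or all probes of a gene, and was 33 to 38 without 1 replicate. It moved to 15 when a signal had to exceed the dimmest spike-in of its array by 3 SD, where 15.4% of named genes passed. With that threshold on replicates 1 and 4 only, added after seeing the data, it was 40, where 51.9% of named genes passed. The 42 Rab genes of the other flag stand beside 60.1% of named genes. The gap between broad and restricted genes, 58.6 percentage points, kept its direction under every such setting, at 47.9 to 66.4, and was 51.4 to 61.4 without 1 replicate. The median level of Rab genes minus that of named genes, 1.42, was 0.46 with normexp and an offset of 50, 0.95 with quantile normalization, 3.51 with replicates 1 and 4 alone, and 0.81 to 2.28 without 1 replicate. The median difference between replicates 1 and 4, -0.10, was 0.38 with spike-in scaling and 0.25 with normexp. The cause was not tested. Levels of the 29 genes named by rule kept within 1 SD without any 1 replicate. Any 4 values would do so, and this check thus cannot show stability. All 29 moved by more than 1 SD with quantile, spike-in or detected-probe scaling, which shift the zero of the scale. Rab35 moved to 1.59 with the mean of all probes, and Rab3a, Rab3b and Rab3c moved to -1.33, -1.26 and -1.70 with normexp. Signal over background on replicates 2 and 3 limits what can be said of dim members. No paired analysis was possible because there is 1 group.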
